A study of Rattus norvegicus with 10 samples.

Results

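The genes of the ATF4 stress response, together with the cytosolic aminoacyl-tRNA synthetases, were examined in cells grown out of the skull vault and the ulna of the same 5 rats. The list held 40 names, of which 39 were gene symbols, and 36 of these genes had a named probe among the 22517 probes and 13336 distinct gene symbols of the rat expression BeadChip. Psat1, Mthfd2 and Mars1 had no named probe and were not measured here, and "Vldlr-free" is not a gene symbol. Each gene was represented by its brightest probe over all 10 arrays, a choice that mattered for Tars1 alone, the only gene with more than 1 probe. S-Bdc were skull bone-derived cells from the calvaria of 5 male CD rats, and they were set against L-Bdc, limb bone-derived cells from the ulnar cortex of the same animals. All cultures held cells of the third collagenase digest, were grown in αMEM with newborn calf serum without further treatment, and were harvested at passage 3 and 95% confluence, 1 array per culture. Digested bone can also release osteocytes and other cells of bone, so each culture was a mixed population.

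ATF4 is a basic leucine zipper (bZIP) transcription factor whose messenger RNA is translated more efficiently when the initiation factor eIF2 is phosphorylated, which happens when amino acids run short or when unfolded protein builds up in the endoplasmic reticulum (ER). It then switches on genes for amino acid uptake and synthesis, for charging tRNA with amino acids, and for feedback on the response itself. Because ATF4 is controlled largely through translation and protein stability, its messenger RNA is an incomplete measure of its activity. In osteoblasts ATF4 is known for its part in amino acid import, collagen production and terminal differentiation. ATF4 binds, with C/EBP family partners, to composite sites called C/EBP-ATF response elements.

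A search for that element, spelled TGATGNAAN on either strand, was made in promoters of the RefSeq annotation (rat build GRCr8) from 250 bases before to 50 bases after each annotated start. It was found in 12 of the 34 listed genes with a promoter in the table (35.3%), and in 1328 of all 33469 promoters (3.97%). Most of the matches lay in synthetase genes, with 7 of 11 synthetase promoters, 3 of 9 promoters of signalling and effector genes, 1 of 9 promoters of amino acid synthesis genes and 1 of 5 promoters of transcription factors. The 5 genes with a match whose signal differed between the sites are shown first, followed by Chac1 and Iars1, which have the same letters but did not pass the test. Each sequence reads along the gene's own strand towards its start, and the capitals mark the match.
Nupr1: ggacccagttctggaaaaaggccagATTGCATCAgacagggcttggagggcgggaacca
Trib3: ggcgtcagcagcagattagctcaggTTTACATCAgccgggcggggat
Herpud1: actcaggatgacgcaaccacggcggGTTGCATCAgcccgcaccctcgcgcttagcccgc
Aars1: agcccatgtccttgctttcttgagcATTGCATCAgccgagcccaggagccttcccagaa
Tars1: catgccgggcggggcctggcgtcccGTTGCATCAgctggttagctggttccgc
Chac1: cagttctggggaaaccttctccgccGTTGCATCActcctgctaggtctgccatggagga
Iars1: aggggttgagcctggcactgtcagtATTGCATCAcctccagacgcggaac
These stretches lie in GRCr8 at chr1:190645924-190645982 (minus strand) for Nupr1, chr3:161275534-161275580 (minus) for Trib3, chr19:10614859-10614917 (minus) for Herpud1, chr19:55908344-55908402 (plus) for Aars1, chr2:62114803-62114855 (minus) for Tars1, chr3:126795938-126795996 (plus) for Chac1 and chr17:15193653-15193702 (minus) for Iars1. In all of them the element is read from the strand opposite to the gene. Aars1 held a second match just after its start. The other promoters with a match were those of Cars1, Yars1, Mars1, Pycr1 and Nars1. A match is a description of the letters and not evidence of binding.

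**Figure D1:**
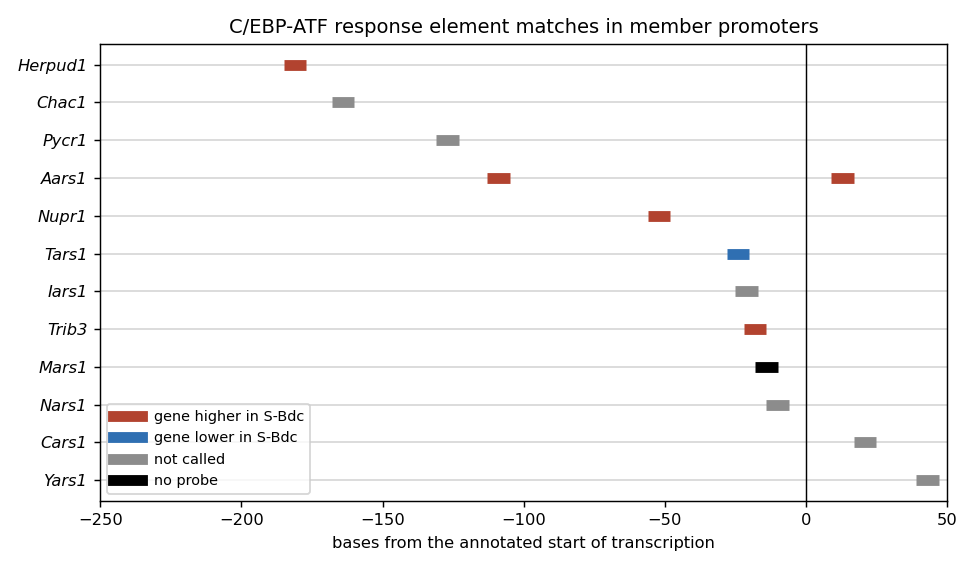
Position of each C/EBP-ATF response element match in the promoters of 12 listed genes. The x axis gives bases from the annotated start of transcription, each row is 1 gene, and colour gives the outcome of the site comparison. The matches of Nupr1, Tars1, Iars1, Trib3, Mars1 and Nars1 lie just before the start, those of Herpud1, Chac1 and Pycr1 lie farther upstream, those of Cars1 and Yars1 lie after it, and Aars1 has 1 on either side.

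The arrays were of similar brightness, with median raw signals between 40.6 and 48.1 units. The probes of 30 of the 36 genes were above background on all 10 arrays, and 34 were so on at least 3. Sesn2 was above background on no array, and Atf6, Atf3, Vegfb, Chac1 and Pycr1 were above it on some arrays only. All levels below are normalised log2 signals, the log2 of background-corrected signal plus an offset of 50, so the change of dim probes is understated. Differences are S-Bdc minus L-Bdc in a limma model with rat and site, and a gene was called when its p-value, adjusted over all probes, was under 0.05. Levels are not compared between genes, since brightness depends on the probe.

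Of the 36 genes, 11 were higher in S-Bdc (30.6%), 1 was lower (2.78%) and 24 did not pass the test. Over all probes, 4.43% were called higher and 4.68% lower. In a separate fit to the 12736 probes above background on at least 3 arrays, the shares were 8.12% and 8.61%. That fit called 13 listed genes higher and 1 lower. Below, calls and gene counts are from the fit to all probes unless stated. Shares of probes above background are from the smaller fit. The median difference was 0.11 for the 36 genes and -0.0015 for all probes. The genes that rose were the transcription factors Atf5, Nupr1 and Ddit3, the stress effectors Stc2, Trib3 and Herpud1, the serine synthesis enzymes Phgdh and Psph, and the synthetases Sars1, Aars1 and Lars1. The gene that fell was the synthetase Tars1. The changes were moderate, with 1 of the 12 called genes, Atf5, past 2-fold. In cultures of mixed cells, fewer cells of a type and less RNA per cell cannot be told apart.

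**Figure D2:**
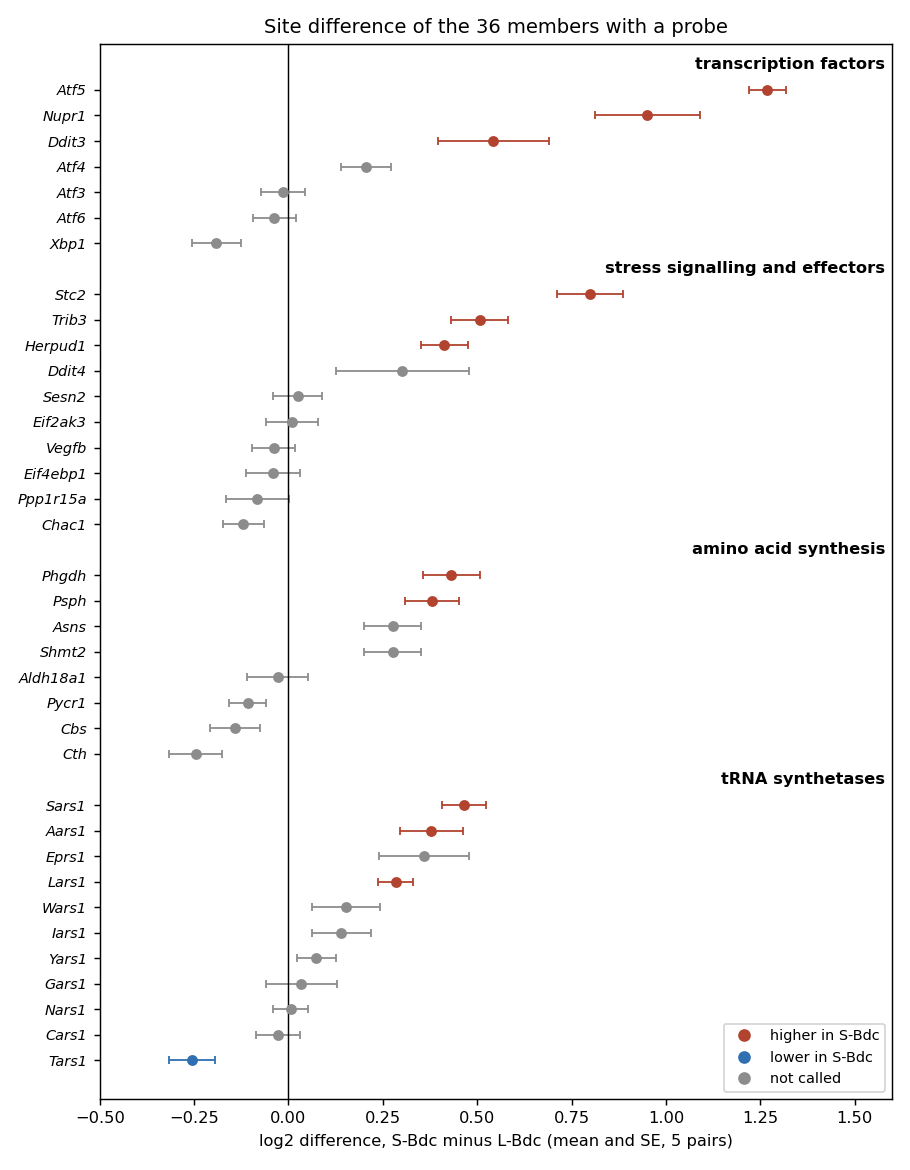
Site difference of the 36 measured genes, in 4 classes. The x axis is the log2 difference, S-Bdc minus L-Bdc, points are the mean over 5 pairs, bars are the moderated SE, and colour marks the call. Atf5 lies farthest to the right at 1.27, and Tars1 is the only called gene to the left of 0.

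In 13 genes the signal was higher in the S-Bdc of all 5 rats, and 10 of them were called. The groups did not overlap in 8 genes. All 5 S-Bdc arrays lay above all 5 L-Bdc arrays in 7 of them, all called, against 3.45% of all probes. Cth was the only gene with the reverse order, which 3.56% of all probes showed. Within rats 1 to 5 the median difference of the 36 genes was 0.17, 0.10, 0.02, 0.08 and 0.14. Rat 3 thus showed the smallest shift, although 22 of its 36 differences were positive.

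**Figure D3:**
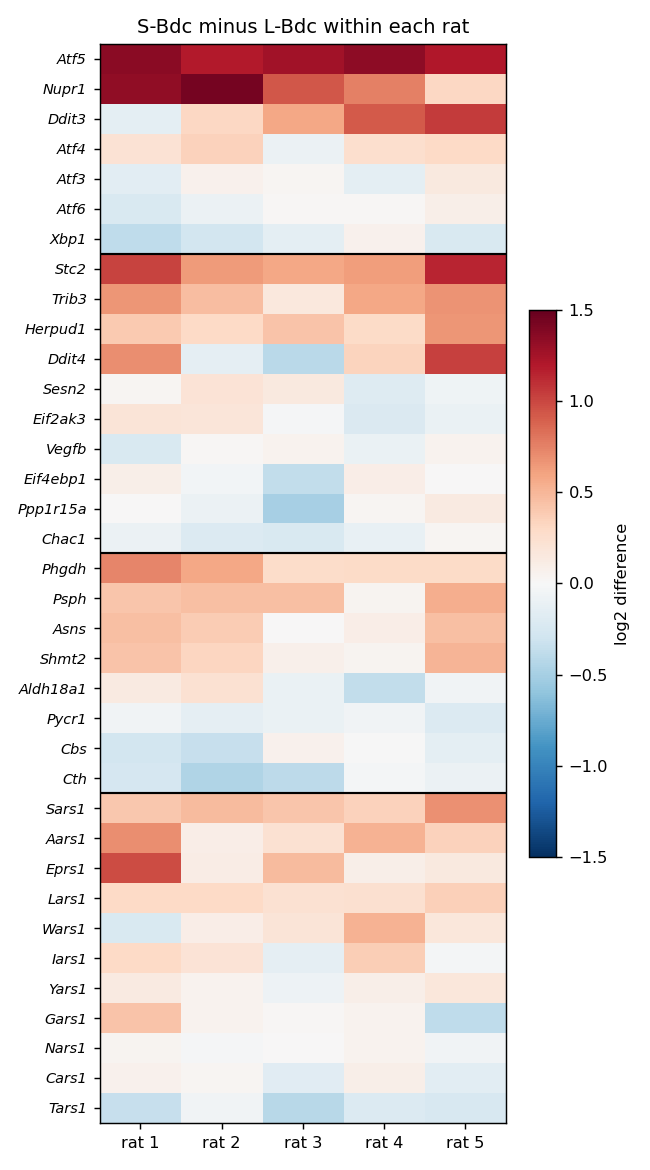
Difference between S-Bdc and L-Bdc within each rat for the 36 measured genes. Rows are genes in 4 classes, columns are rats, and colour is the log2 difference, red where S-Bdc was higher. Atf5 and Stc2 are red in all 5 rats, Ddit3 is pale blue in rat 1 and red in the others, and Nupr1 is palest in rat 5.

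Among the 7 transcription factors, 3 were higher in S-Bdc (42.9%, against 8.12% of probes above background) and none was lower. Their median difference was 0.21. Atf5, a close relative of ATF4 whose messenger RNA is likewise translated under stress and whose targets include genes of the mitochondrial stress response, had the largest difference of the list. Its signals were 10.06, 10.02, 10.01, 9.97 and 10.09 in S-Bdc of rats 1 to 5, against 8.71, 8.83, 8.76, 8.63 and 8.89 in L-Bdc. The gap between the groups was far wider than the spread within either. The difference was 1.27 ± 0.05 (moderated SE, 5 pairs), a 2.41-fold higher signal, with an adjusted p of 3.85e-06. Atf5 was the only one of the 12 called genes that kept its call under each of the 13 alternatives tried.

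Nupr1, a small stress-induced chromatin-associated protein, followed. Its signals were 10.13, 10.45, 9.78, 9.73 and 9.51 in S-Bdc and 8.80, 9.01, 8.85, 8.98 and 9.20 in L-Bdc. S-Bdc varied more than L-Bdc, with the SD at 0.37 in S-Bdc and 0.16 in L-Bdc, but the groups did not overlap. The difference was 0.95 ± 0.14 (1.93-fold, adjusted p = 0.00231), and it was smallest in rat 5 at 0.31.

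Ddit3 encodes CHOP, a bZIP factor that acts downstream of ATF4 and promotes cell death when stress persists. Its signals were 8.76, 9.55, 9.57, 9.52 and 9.74 in S-Bdc, and 8.90, 9.23, 8.99, 8.60 and 8.69 in L-Bdc. S-Bdc was higher in 4 of the 5 rats, and the groups overlapped because S-Bdc of rat 1 lay within the L-Bdc range. The difference was 0.54 ± 0.15 (1.46-fold) with an adjusted p of 0.0495, just inside the threshold. Leaving out rat 2, 3, 4 or 5 ended the call, with adjusted p-values of 0.0723 to 0.201, whereas without rat 1 the difference was 0.71 with an adjusted p of 0.00158.

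Atf4 itself was higher in 4 of 5 pairs without passing the test. Its signals were 10.26, 10.46, 10.31, 10.40 and 10.62 in S-Bdc and 10.03, 10.11, 10.39, 10.14 and 10.33 in L-Bdc, so that the groups overlapped and rat 3 ran the other way. The difference was 0.21 ± 0.07 (95% confidence interval 0.06 to 0.35, adjusted p = 0.102). Without rat 3 it passed, at 0.28 with an adjusted p of 0.0234. With any other rat left out Atf4 did not pass (adjusted p up to 0.279).

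Xbp1, the factor activated by splicing in the IRE1 branch of the ER stress response, had signals of 10.53, 10.73, 10.85, 11.01 and 10.69 in S-Bdc and 10.91, 11.00, 11.00, 10.95 and 10.92 in L-Bdc. It was lower in S-Bdc of 4 rats, at -0.19 ± 0.07 (adjusted p = 0.12). It passed without rat 4 (adjusted p = 0.044) and did not with any other rat left out (up to 0.292). Splicing of Xbp1 was not measured. Among the 34 listed genes with a promoter to search, only that of Xbp1 held the ER stress response element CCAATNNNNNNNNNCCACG. It was searched on both strands and found in 22 of 33469 promoters (0.0657%). Atf3, Atf6, Eif4ebp1, Aldh18a1 and Gars1 had no promoter to search. The Xbp1 stretch is shown as the only such match in the promoters searched for listed genes, with the element in capitals.
Xbp1: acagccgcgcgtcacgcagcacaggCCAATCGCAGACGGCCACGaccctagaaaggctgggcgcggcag
It lies at chr14:84604533-84604601 of GRCr8 on the plus strand. Atf6, the sensor of the remaining ER branch, was above background on no S-Bdc array and 2 L-Bdc arrays, and Atf3, a repressor induced by ATF4, on 1 S-Bdc array and 2 L-Bdc arrays. Both were too dim for a fold, and neither passed (adjusted p = 0.835 for Atf6 and 0.95 for Atf3).

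**Figure D4:**
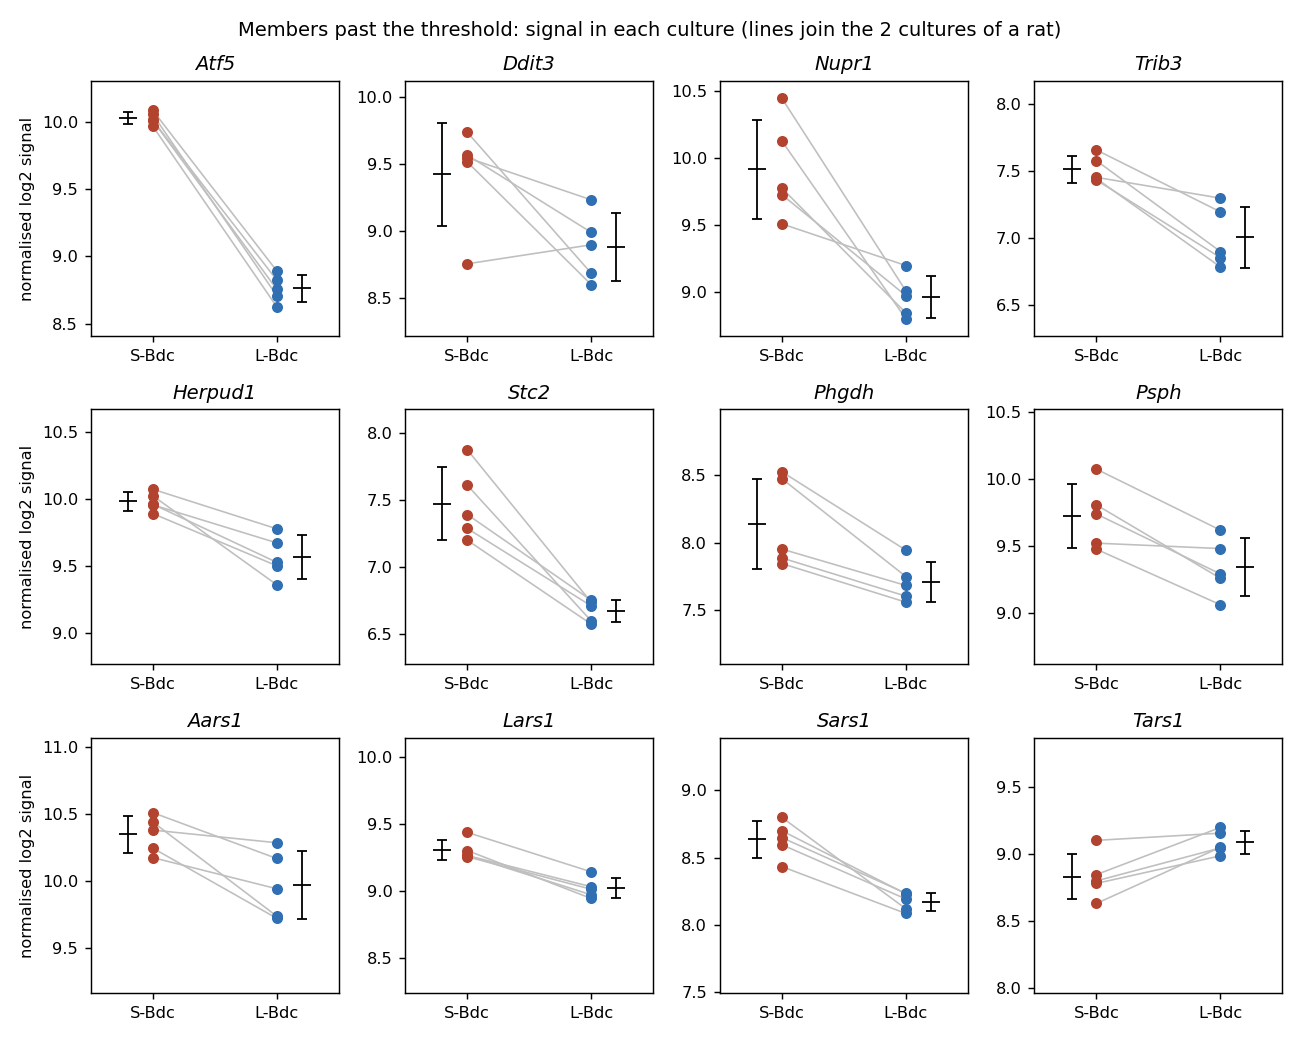
Signals of the 12 called genes in every culture. The y axis is the normalised log2 signal with the same span in each panel, points are arrays, grey lines join the 2 cultures of a rat, and the black marks are the mean and SD of the 5 arrays of a site. The groups are separate for Atf5, Nupr1, Trib3, Herpud1, Stc2, Lars1 and Sars1 and overlap for the other genes.

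Of the 10 genes of stress signalling and its effectors, 3 were higher in S-Bdc (30%, against 8.12% of probes above background) and none was lower. The median difference was 0.02. Stc2, a secreted glycoprotein that is induced by ER stress and restrains growth by inhibiting the protease PAPP-A, had the largest difference of the class. It measured 7.61, 7.39, 7.29, 7.20 and 7.88 in S-Bdc and 6.60, 6.75, 6.71, 6.58 and 6.74 in L-Bdc. The lowest S-Bdc culture thus lay well above the highest L-Bdc culture. The difference was 0.80 ± 0.09 (1.74-fold, adjusted p = 0.000467).

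Trib3, a pseudokinase that dampens ATF4 and CHOP in a feedback loop, measured 7.44, 7.66, 7.45, 7.43 and 7.58 in S-Bdc and 6.78, 7.19, 7.30, 6.85 and 6.90 in L-Bdc. The groups were separate, although rat 3 contributed a small step. The difference was 0.51 ± 0.08 (1.42-fold, adjusted p = 0.00273).

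Herpud1, a membrane protein of the machinery that degrades ER proteins, measured 9.89, 10.07, 9.96, 9.95 and 10.02 in S-Bdc and 9.50, 9.78, 9.53, 9.67 and 9.36 in L-Bdc. Again no L-Bdc culture reached the S-Bdc range. The difference was 0.41 ± 0.06 (1.33-fold, adjusted p = 0.00285). The calls of Nupr1, Stc2, Trib3 and Herpud1 held whichever rat was left out.

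The other 7 genes of the class did not pass. Ddit4, an inhibitor of the growth kinase mTORC1, spread widely in both groups, at 9.73, 9.88, 10.01, 10.05 and 10.50 in S-Bdc and 9.04, 10.02, 10.41, 9.72 and 9.47 in L-Bdc. Its sign differed between rats, and the difference of 0.30 ± 0.18 had an adjusted p of 0.443. The eIF2 kinase of the ER, Eif2ak3 (PERK), differed by 0.01 ± 0.07 (95% confidence interval -0.14 to 0.16), and Ppp1r15a (GADD34), which returns eIF2 to its unphosphorylated state, by -0.08 ± 0.08. Eif4ebp1, a repressor of translation initiation that is also an ATF4 target, differed by -0.04 ± 0.07 (interval -0.20 to 0.12). Chac1, which breaks down glutathione and is strongly induced by ATF4, stood at -0.12 ± 0.05 (adjusted p = 0.271), although its probe was close to background. Vegfb, a growth factor of the VEGF family, stood at -0.04 ± 0.06 and was above background on 2 arrays of each site. Sesn2, a leucine sensor upstream of mTORC1, was at background on all arrays and gives no comparison.

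The 8 measured genes of amino acid synthesis included 2 that were higher in S-Bdc (25%, against 4.43% of all probes). With dim probes left out 4 were higher, against 8.12% of probes. None was lower, and the median difference was 0.12. Both called genes act in serine synthesis. Phgdh, the first and rate-limiting enzyme of that route, measured 8.48, 8.53, 7.95, 7.84 and 7.89 in S-Bdc and 7.75, 7.94, 7.68, 7.56 and 7.60 in L-Bdc. Rats 1 and 2 showed the widest steps, and the groups overlapped although every rat had the higher value in S-Bdc. The difference was 0.43 ± 0.08 (1.35-fold, adjusted p = 0.00632), and the call held whichever rat was left out.

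Psph, which completes serine synthesis by removing the phosphate, measured 9.48, 10.07, 9.74, 9.52 and 9.81 in S-Bdc and 9.06, 9.62, 9.29, 9.48 and 9.26 in L-Bdc. All 5 rats had the higher value in S-Bdc, rat 4 by little. The difference was 0.38 ± 0.07 (1.30-fold, adjusted p = 0.0093), and leaving out rat 3 ended the call (adjusted p = 0.0505). Psat1, the enzyme between Phgdh and Psph, was not measured.

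Shmt2 and Asns lay just outside the threshold, with the higher value in S-Bdc of all 5 rats. Shmt2, the mitochondrial enzyme that turns serine into glycine and feeds the folate cycle, measured 8.29, 8.06, 8.11, 8.16 and 8.19 in S-Bdc and 7.86, 7.74, 8.03, 8.12 and 7.68 in L-Bdc. Asns, asparagine synthetase and a standard reporter of ATF4 activity, measured 7.79, 7.99, 7.59, 7.52 and 7.74 in S-Bdc and 7.35, 7.61, 7.59, 7.42 and 7.29 in L-Bdc. Both differences were 0.28 ± 0.08, with adjusted p-values of 0.0516 for Shmt2 and 0.0517 for Asns. Leaving out rat 4 brought Shmt2 past the threshold (adjusted p = 0.0441), and leaving out rat 3 did so for Asns (adjusted p = 0.0319). With each of the other rats left out they stayed outside, at up to 0.166 for Shmt2 and 0.167 for Asns. Both also passed when dim probes were left out, at 0.0425 for Shmt2 and 0.0426 for Asns.

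Cth, which makes cysteine from cystathionine, ran the other way. It measured 7.87, 7.85, 7.99, 8.07 and 8.05 in S-Bdc and 8.13, 8.30, 8.39, 8.10 and 8.14 in L-Bdc. All S-Bdc values lay below all L-Bdc values, but rats 4 and 5 differed by little, and the difference of -0.25 ± 0.07 did not pass (adjusted p = 0.0597). Cbs, the enzyme before Cth, differed by -0.14 ± 0.07 (adjusted p = 0.307). The proline synthesis enzymes Pycr1, at -0.11 ± 0.05, and Aldh18a1, at -0.03 ± 0.08, did not pass either. The Pycr1 probe was close to background, above it on 4 S-Bdc arrays and 5 L-Bdc arrays. The differences of the serine enzymes and of the cysteine and proline enzymes thus had opposite signs, a contrast between genes that was not tested, and that of Aldh18a1 turned positive without rat 4.

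Among the 11 measured synthetases, the enzymes that join amino acids to their tRNAs, 3 were higher (27.3%) and 1 was lower (9.09%) in S-Bdc. The shares of probes above background were 8.12% and 8.61%. The median difference of the class was 0.14. Sars1, the seryl-tRNA synthetase, had the clearest difference. It measured 8.60, 8.70, 8.65, 8.43 and 8.80 in S-Bdc and 8.19, 8.23, 8.23, 8.08 and 8.12 in L-Bdc. No values overlapped, and the difference was 0.46 ± 0.06 (1.38-fold, adjusted p = 0.000983).

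Lars1, the leucyl-tRNA synthetase, measured 9.44, 9.26, 9.26, 9.25 and 9.30 in S-Bdc and 9.14, 8.97, 9.03, 9.01 and 8.94 in L-Bdc. The step was small but similar in every rat, at 0.28 ± 0.05 (1.22-fold, adjusted p = 0.00429). Sars1 and Lars1 kept their calls whichever rat was left out. Aars1, the alanyl-tRNA synthetase, measured 10.44, 10.38, 10.17, 10.25 and 10.51 in S-Bdc and 9.74, 10.29, 9.94, 9.72 and 10.17 in L-Bdc. Here the groups overlapped, with L-Bdc of rat 2 inside the S-Bdc range. The difference was 0.38 ± 0.08 (1.30-fold, adjusted p = 0.0187), and the call was lost without rat 4 (adjusted p = 0.0894) and without rat 5 (0.0512).

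Tars1, the threonyl-tRNA synthetase, was the only listed gene called lower in S-Bdc. It measured 8.85, 9.10, 8.63, 8.78 and 8.80 in S-Bdc and 9.20, 9.16, 9.05, 8.99 and 9.05 in L-Bdc. S-Bdc was the lower culture in all 5 rats, although its rat 2 value fell inside the L-Bdc range. The difference was -0.255 ± 0.06 (adjusted p = 0.0274). The call was lost without rat 1, 3, 4 or 5, with adjusted p-values of 0.0597 to 0.118. A second, dimmer probe of Tars1 gave -0.07 ± 0.06 (adjusted p = 0.667).

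Eprs1, the fused glutamyl-prolyl synthetase, measured 8.92, 8.03, 8.19, 7.97 and 8.14 in S-Bdc and 7.94, 7.92, 7.72, 7.89 and 7.99 in L-Bdc. It was higher in S-Bdc of every rat, with S-Bdc of rat 1 far above the rest. The difference of 0.36 ± 0.12 did not pass (adjusted p = 0.114). Differences of the remaining 6 measured synthetases were 0.15 ± 0.09 for Wars1 (tryptophan), 0.14 ± 0.08 for Iars1 (isoleucine), 0.07 ± 0.05 for Yars1 (tyrosine), 0.03 ± 0.09 for Gars1 (glycine), 0.01 ± 0.05 for Nars1 (asparagine) and -0.03 ± 0.06 for Cars1 (cysteine). None of the 6 passed the test. Gars1 was higher in S-Bdc of rat 1 by 0.43 and lower in that of rat 5, at -0.38.

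Called genes stood on both sides of the promoter motif split. Of the 11 measured genes with a match, 4 were higher and 1 was lower in S-Bdc, and of the 20 measured genes with a promoter and no match, 7 were higher. Atf5, Stc2 and Sars1, the genes with the lowest adjusted p-values, had no match in this window. The absence says only that these letters do not occur there.

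Related genes outside the list were counted in the same fit. Of 22 other ATF4 targets with a probe, 6 were higher (27.3%) and 3 lower (13.6%) in S-Bdc, with a median difference of 0.07, against 8.12% and 8.61% of all probes above background. The counts were 8 higher and 3 lower with dim probes left out. They were 4 higher and 1 lower under median scaling, 3 and 0 without normalisation, and 0 and 0 with processed values floored at 16 units. The 3 with the lowest adjusted p-values were Sqstm1 (p62, a receptor that delivers cargo to autophagy) at 0.71 ± 0.11 (adjusted p = 0.0027), Slc6a9 (a glycine transporter) at 0.45 ± 0.07 (adjusted p = 0.00332) and Rhoq (a small GTPase) at 0.36 ± 0.06 (adjusted p = 0.00484). When all its probes were averaged, Sqstm1 was at 0.21 and no longer passed (adjusted p = 0.198). The remaining called targets, named after their values were seen, split by direction. Slc7a5 at 0.39 ± 0.08 and Slc3a2 at 0.34 ± 0.07, the subunits of the leucine transporter LAT1, and Gdf15, a stress-induced hormone, at 0.31 ± 0.07 were higher in S-Bdc. The Gdf15 probe was dim, above background on 5 S-Bdc arrays and 1 L-Bdc array. Slc1a4 at -0.32 ± 0.06 and Slc1a5 at -0.33 ± 0.08, transporters of small neutral amino acids and glutamine, and the mitochondrial folate enzyme Mthfd1l at -0.27 ± 0.06 were lower. With all probes of a gene averaged, 5 of these targets were higher and 2 lower. Of the 3 lower targets only Slc1a5 had more than 1 probe.

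In S-Bdc, 1 of 8 other cytosolic synthetases and partners of the multisynthetase complex was higher (12.5%) and 2 were lower (25%). The shares of all probes in the same fit were 4.43% and 4.68%. With dim probes left out, 1 gene was higher and 1 lower, against 8.12% and 8.61% of probes. The median difference of these 8 genes was -0.15. The higher and lower calls all fell away under median scaling, without normalisation and with the floor. Qars1 (glutamine) was higher at 0.29 ± 0.06 (adjusted p = 0.00911), whereas Eef1e1, a scaffold of the complex, at -0.22 ± 0.06 (adjusted p = 0.0392) and Vars1 (valine) at -0.20 ± 0.05 (adjusted p = 0.049) were lower. Of these calls Qars1 was kept without any 1 rat, while Eef1e1 was lost without rat 1, 2, 3 or 4 (adjusted p up to 0.161) and Vars1 without rat 1, 3, 4 or 5 (up to 0.177). Vars1 also did not pass with dim probes left out (adjusted p = 0.0579). None of 11 mitochondrial synthetases passed the limma test (at an unadjusted p under 0.05, 1 was higher and 1 lower), and the lowest adjusted p among them was that of Yars2, 0.106 at -0.15 ± 0.05.

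The machinery around ATF4 was counted in the same way. Of 12 genes for eIF2 kinases, eIF2 and its exchange factor eIF2B, none was higher and 2 eIF2B subunits were lower. The lower share was 16.7%, against 8.61% of probes above background. The 2 were Eif2b3 at -0.46 ± 0.11 (adjusted p = 0.0341) and Eif2b1 at -0.35 ± 0.09 (adjusted p = 0.0423). Eif2b3 was lost without rat 2, 3 or 4 (adjusted p up to 0.118) and Eif2b1 without rat 1, 3, 4 or 5 (up to 0.171). Among 12 bZIP partners 1 was called in each direction, a share of 8.33% that is close to that of probes above background. Nfe2l2 (NRF2, the regulator of the antioxidant response) was higher at 0.50 ± 0.06 (adjusted p = 0.000561) and Fos was lower at -0.49 ± 0.11 (adjusted p = 0.0201, lost without rat 2, 3 or 4 at up to 0.0861). With dim probes left out 1 bZIP partner was higher and 2 were lower. Of 19 genes of the ER unfolded protein response, 1 was called in each direction (5.26%), again near the background. The higher was the chaperone cofactor Dnajb9 at 0.30 ± 0.06 (adjusted p = 0.0107), and the lower was the chaperone Hsp90b1 at -0.29 ± 0.06 (adjusted p = 0.012, lost without rat 2 or 3 at up to 0.0617). With dim probes left out 1 gene of this ER list was higher and 2 were lower. Hspa5 (BiP), the standard marker of ER stress and named after its value was seen, stood at -0.09 ± 0.06 (adjusted p = 0.535). Among 13 relatives in serine, folate and proline metabolism only Mthfd1 passed (7.69%, near the background), lower at -0.30 ± 0.08 (adjusted p = 0.0387). Its call was lost without rat 1, 3, 4 or 5 (up to 0.154).

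**Figure D5:**
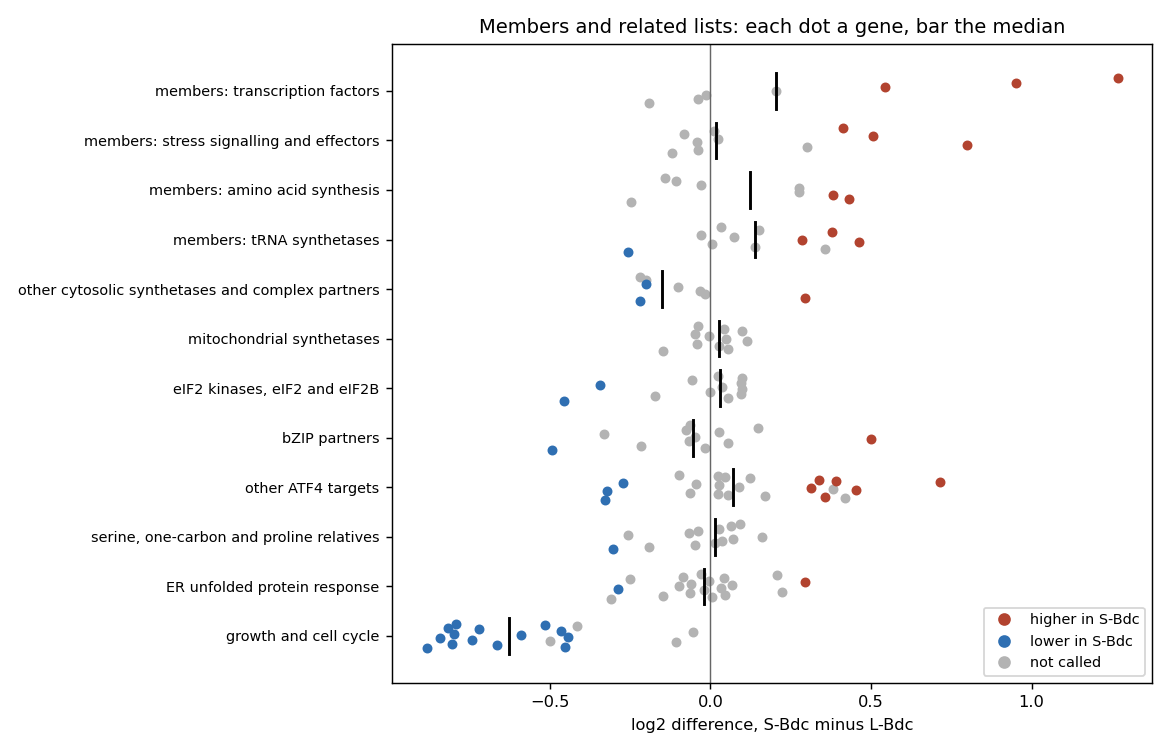
Site differences of the listed genes by class and of the related lists. The x axis is the log2 difference, S-Bdc minus L-Bdc, each dot is a gene (its height within a row has no meaning), black bars are medians and colour marks the call. The growth and cell cycle list lies to the left, with a median of -0.63. The medians of the other rows lie between -0.15, in the other cytosolic synthetases, and 0.21, in the listed transcription factors.

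The genes of growth and cell cycle had the largest median difference of these lists. Of 18 with a probe, 14 were lower in S-Bdc (77.8%, against 8.61% of probes above background). None was higher, and the median difference was -0.63. With dim probes left out 16 were lower. The count of lower genes was 9 under median scaling, 6 without normalisation and 2 with processed values floored at 16 units. Myc, a transcription factor that drives growth, stood at -0.84 ± 0.06 (adjusted p = 5.15e-05), the mitotic kinase Plk1 at -0.81 ± 0.06 (8.27e-05) and the replication factor Cdc6 at -0.72 ± 0.08 (0.000426). The summed deposited values of the list were 7512 to 12090 units in S-Bdc and 14100 to 16640 units in L-Bdc, so the groups did not overlap. The cultures were therefore unlike in proliferation markers at harvest, and the part of this in the differences of the ATF4 genes was not tested. The direction differs from the cell assay of the paper, which reported faster proliferation of S-Bdc, with L-Bdc still proliferating on a later day. That assay followed growth from equal plating, whereas the arrays show a single time near confluence.

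No marker of another cell type passed the limma test, and at an unadjusted p under 0.05 there were 2 adipocyte markers higher, 1 muscle marker lower and 1 neural marker lower. The 4 adipocyte markers summed to 156.9 to 357.3 units in S-Bdc and 80.9 to 280.9 units in L-Bdc, with Adipoq above background on no array. The 2 with an unadjusted p under 0.05 were Cfd at 0.70 ± 0.21 (adjusted p = 0.0761) and Pparg at 0.24 ± 0.07 (adjusted p = 0.0824). Each was higher in S-Bdc of 4 rats. The 6 muscle markers were dim, at 10.3 to 26.5 units in S-Bdc and 29.4 to 86.6 units in L-Bdc, so that the groups did not overlap. The 6 macrophage and osteoclast markers summed to 1826 to 2571 units in S-Bdc and 2154 to 2672 units in L-Bdc, with Ptprc, Aif1 and Calcr at background on all arrays. The 4 neural markers summed to 129.3 to 374.4 units in S-Bdc and 205.8 to 491.9 units in L-Bdc, and the 3 cartilage markers to 23.8 to 46.1 units in S-Bdc and 37.0 to 50.7 units in L-Bdc. Of the 3 endothelial markers, Cdh5 and Vwf were at background on all arrays. Of 10 osteoblast markers 1 was higher and 1 lower in S-Bdc (10% each, near the shares of probes above background). They were Col1a1 at 0.58 ± 0.06 (adjusted p = 0.000382) and Spp1 at -1.81 ± 0.12 (adjusted p = 3.13e-05). At an unadjusted limma p under 0.05, 3 osteoblast markers were higher and 1 lower. Phex was at background throughout, and Sp7, Bglap and Dmp1 were above it on some arrays only. The part of cell composition in the differences of the ATF4 genes was not tested.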

How the data were processed

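Total RNA of 10 cultures, 5 S-Bdc and 5 L-Bdc, was hybridised to the Illumina RatRef-12 Expression BeadChip. The raw signals deposited by the authors are mean bead intensities per probe from BeadStudio, uncorrected for background and not normalised. The deposited value table holds intensities processed by the authors, with 24.1% of values at or below 0; its settings are not given in the sources used here. Raw rows were matched to value rows by their ranks on the 10 arrays (22517 rows, largest rank distance 0.264% of ranks), and gene names rest on that match and on the platform annotation, which gave 1 symbol to 13787 probes and none to 8730. Background was taken as up to 8.514 deposited units, the 95th percentile of the sizes of values at or below 0.

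Raw signals were corrected by normexp with an offset of 50, quantile normalised on the log2 scale and fitted in limma 3.58.1 (R 4.3.3) with rat and site, all probes kept, and two-sided p-values were adjusted by Benjamini-Hochberg. Per the labels, the S-Bdc and L-Bdc of a given number share an animal, and their deviations from the mean of their site were correlated, for rats 1 to 5, at 0.0597, 0.211, 0.25, 0.176 and 0.129. The fit left 4 residual degrees of freedom, and the number of arrays limits its precision. Every listed gene with a probe is named, and in each related list up to 3 genes with the lowest adjusted p among those called, or 1 where none was. The genes and lists were chosen with earlier results of these data known. Median scaling, no normalisation, an offset of 16, the processed values, a filter on dim probes, all probes of a gene averaged, no replicate block and each rat left out were tried as alternatives. The pipeline was tested on simulated data.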

Additional observations from a re-analysis of the deposited data

Results flagged for a closer look

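In each of the 36 genes, the highest or lowest culture of a site was compared with the other 4, giving 72 groups, and 6 held a culture whose gap to its nearest neighbour exceeded 0.71 of the whole range. Chance alone gives such a gap in about 1 in 20 groups. S-Bdc of rat 1 accounted for 3 of the 6 on the normalised log2 scale. Its Ddit3 signal was low at 8.7572, against 9.5165 to 9.7374 in S-Bdc of the other rats, its Eprs1 signal was high at 8.9243 against 7.9737 to 8.1876, and its Lars1 signal was high at 9.436 against 9.2543 to 9.3006. The Eif2ak3 signal of S-Bdc of rat 4 was low at 7.1723, against 7.3992 to 7.4221. The Atf3 signal of S-Bdc of rat 5 was high at 6.2446, against 6.0706 to 6.1168, all close to background. The Aldh18a1 signal of L-Bdc of rat 4 was high at 8.7064, against 8.2244 to 8.3582.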

How the results depend on the processing

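Under the 13 alternatives no called gene changed sign. Atf5 kept its call in all, and each of the other 11 called genes lost it in at least 1. The count of higher genes, 11, became 7 without normalisation and 2 with processed values floored at 16 units, and the count of lower genes, 1, became 0 under median scaling, no normalisation, an offset of 16, the floor and averaged probes, as did the synthetases lower. With the floor, higher calls numbered 1 transcription factor, 0 effectors, 0 genes of amino acid synthesis and 1 synthetase; without normalisation 1 synthetase. Amino acid synthesis had 1 higher under median scaling and under no normalisation, and 4 with dim probes left out or processed values plus 50 units. Under median scaling Aars1, Phgdh and Tars1 lost their calls (adjusted p = 0.137, 0.0695 and 0.104), as did the related genes Qars1, Rhoq and Dnajb9 (0.0527, 0.073 and 0.102), higher in S-Bdc, and Eef1e1, Eif2b1, Hsp90b1, Mthfd1 and Vars1 (0.12, 0.0964, 0.238, 0.209 and 0.36), lower in S-Bdc. With no replicate block, 8 genes were higher, but 0 of amino acid synthesis, of which 1 (Cth, adjusted p = 0.0374) was lower, and 0 synthetases were lower; Ddit3, Phgdh, Psph and Tars1 lost their calls (0.0604 to 0.073). Rat 1 of S-Bdc deviated most like L-Bdc of rat 5. All probes called numbered 2050, 1268 under median scaling, 870 without normalisation and 209 with the floor. The split of 997 higher and 1053 lower became 513 and 357 without normalisation and 125 and 84 with the floor. Leaving out each rat gave 9 to 11 higher and 0 to 1 lower genes, 0 to 1 transcription factors lower (Xbp1), 0 to 1 synthetases lower and 1323 to 2219 probes, lowest without rat 3. Uncalled genes changed sign 18 times, by at most 0.0623 beyond 0. The causes of these changes were not tested. Leaving out dim probes reduced the number of probes tested and also refitted the model on the rest.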
